A study of Mus musculus with 4 samples.

Results

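Expression of 8 genes used to tell olfactory ensheathing glia and Schwann cells from other cells was examined in single cells of the embryonic mouse nose. The genes were Fabp7, Frzb, Npy, Foxd3, Cdh19, Gfra3, Dhh and Prss56, chosen by symbol, and all 8 of 8 were present among the 32285 genes of the deposited tables. Whole noses were taken at embryonic day 14.5, and 4 libraries were analysed, 2 titled WT and 2 titled Sox10Cre/Yap/Taz cKO, called control and mutant here. Mutants carried the Tg(Sox10-cre)1Wdr transgene with floxed Yap and Taz alleles, of which the series design gives 1 Yap allele as floxed and 1 as wild type and both Taz alleles as floxed. The controls are described in conflicting ways: as C57Bl/6J in the sample labels and as floxed for both genes without Cre in the series design. Groups are therefore named by the sample titles. Sox10-cre acts in the neural crest and its derivatives, glia included, and the noses also hold many cells that never had Cre. The protocol counts 2 noses of each genotype and does not say whether each library is 1 of them, so p-values measure only the spread between these libraries.

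Glia of the embryonic nose descend largely from neural crest cells that migrate along the olfactory, vomeronasal and trigeminal nerves. Olfactory ensheathing cells wrap bundles of olfactory axons, whereas Schwann cell precursors and Schwann cells accompany the other nerves, and both keep the neural crest transcription factor Sox10. Fabp7 encodes a cytoplasmic carrier of fatty acids found in early glia, Foxd3 a transcription factor of the neural crest and its early glia, and Cdh19 a cadherin, a cell adhesion protein, of Schwann cell precursors. Gfra3 encodes a surface receptor of the GDNF family that binds artemin, and Dhh encodes desert hedgehog, a ligand by which Schwann cells signal to the nerve sheath. Frzb encodes a secreted antagonist of Wnt ligands, Npy the secreted peptide neuropeptide Y, and Prss56 a serine protease.

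The genes lie on separate chromosomes apart from Cdh19 and Prss56 (GRCm38, GENCODE M21). Fabp7 spans chr10:57784881-57788450, Frzb chr2:80411970-80447625, Npy chr6:49822710-49829507 and Foxd3 chr4:99656299-99658622. Cdh19 spans chr1:110888326-110977584, Dhh chr15:98891152-98898540 and Prss56 chr1:87183313-87188405. Dhh overlaps Rhebl1 on the same strand and Gm49442 on the other, both of which are counted as separate genes, so its counts are uncertain. On the same strand the annotation also places the microRNA gene Gm23366 within Foxd3 and the transcripts Gm38255 and Gm36944 within Cdh19, of which no separate counts were used here. Values below count UMIs (unique molecular identifiers, 1 for each captured RNA molecule) per whole gene, without telling exons from introns.

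The sequences before the starts of 3 of the genes are shown because their expression falls into distinct patterns: Fabp7 and Foxd3 had most of their UMIs in glia-like cells, Npy most of its UMIs elsewhere. Windows of 250 bases before the RefSeq start of transcription (GRCm38.p6) were examined, and each is shown up to the start of the GENCODE gene, 5′ to 3′ on the plus strand, which is that of all 3 genes. Capitals mark ACAAT, a core letter pattern bound by SOX proteins, or its reverse complement ATTGT. The sequence of Fabp7 lies at chr10:57784673-57784880, that of Foxd3 at chr4:99656049-99656298 and that of Npy at chr6:49822460-49822709.
Fabp7: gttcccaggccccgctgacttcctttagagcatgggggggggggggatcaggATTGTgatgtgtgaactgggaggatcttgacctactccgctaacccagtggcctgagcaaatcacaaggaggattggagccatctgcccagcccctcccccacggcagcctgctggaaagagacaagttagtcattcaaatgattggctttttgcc
Foxd3: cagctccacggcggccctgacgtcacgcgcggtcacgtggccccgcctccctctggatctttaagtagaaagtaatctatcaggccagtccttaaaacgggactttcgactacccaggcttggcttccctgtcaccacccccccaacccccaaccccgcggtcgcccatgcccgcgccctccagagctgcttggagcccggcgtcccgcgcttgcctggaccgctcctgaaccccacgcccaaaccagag
Npy: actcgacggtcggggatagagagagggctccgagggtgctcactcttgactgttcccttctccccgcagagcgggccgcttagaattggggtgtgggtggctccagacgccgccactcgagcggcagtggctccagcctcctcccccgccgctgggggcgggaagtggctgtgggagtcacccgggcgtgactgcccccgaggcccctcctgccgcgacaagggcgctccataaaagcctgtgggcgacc
ACAAT was searched on both strands together with ACAAAG and TATAAA, the first of which shares its opening 4 letters with the second. Of the 6 of 8 genes with a RefSeq window, Fabp7 held 1 match, ACAAT on the minus strand 198 bases before the start, and Frzb, Npy, Foxd3, Dhh and Prss56 held none of the 3 patterns. Among 32851 mouse windows of the same length, 27.7% held ACAAT, 16.5% ACAAAG, 38.8% either of these and 12.4% TATAAA. CpG pairs numbered 4 in Fabp7, 7 in Prss56, 9 in Dhh, 16 in Frzb and 21 each in Npy and Foxd3, against a median of 6 over all windows. A letter match is a description of these windows, not a binding site.

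Retained were 13739 cells that had 500 or more genes and no more than 10% mitochondrial UMIs: 4075 and 2474 in control libraries against 2995 and 4195 in the mutants. Retained cells had 19767873 to 35331450 UMIs per library, with medians of 5282 to 8549 UMIs per cell, lowest in mutant 2. Any pair of libraries shared 3 to 5 cell barcodes. Clusters were formed without the 8 genes and named from marker lists. Glial markers named 1 cluster of 124 cells (43, 28, 32 and 21 in control 1, control 2, mutant 1 and mutant 2), with 9 of 10 glial markers enriched. Sox10, Ednrb and Egfl8 were among its 10 leading genes. The same 124 cells formed this cluster at the finer resolution, so ensheathing and Schwann glia were not separated by clustering. Markers of macrophages and endothelium were low in it: of the macrophage markers C1qa, C1qb, C1qc, Csf1r and Ptprc were at 0, of the endothelial markers Cdh5, Tie1, Tek and Esam were at 0, and the macrophage list summed to 2.39 to 18.8 CPM (the gene's share of all UMIs, scaled to counts per 1000000) per library. The 10 mesenchymal markers, none at 0, summed to 2063 and 797 CPM in control libraries against 1096 and 1385 CPM in the mutants, and the 8 osteoblast markers to 346 CPM in control 1 and 15.9 to 45.5 CPM in the other libraries. Olfactory neuronal markers summed to 542, 1270, 881 and 936 CPM and chondrocyte markers to 499, 194, 750 and 548 CPM in control 1, control 2, mutant 1 and mutant 2, beside 2493, 1757, 2802 and 2764 CPM for the glial list. The part of other cells in the values of this cluster was not tested. Both targeted genes were still counted: in glia-like cells Yap1 was at 57.3 and 55.5 CPM in control libraries against 45.6 and 55.4 CPM in the mutants. Wwtr1, the gene of Taz, was at 222 and 190 CPM in control libraries against 241 and 320 CPM in the mutants, higher in both mutants from 93, 48, 90 and 52 UMIs. Because the assay reads the 3′ end of transcripts, which can lie outside floxed exons, this does not measure recombination.

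Foxd3 was counted almost wholly in glia-like and melanocyte-like cells. In glia-like cells it was at 220 and 274 CPM in control libraries against 206 and 252 CPM in the mutants, a mean of 238 ± 30.7 CPM (SD, n = 4 libraries). This was the smallest spread between libraries relative to the mean of the 8 genes. Of 304 Foxd3 UMIs, 279 (91.8%) were in the 124 glia-like cells, which made up 0.902% of retained cells. Another 16 UMIs were in melanocyte-like cells, which also descend from the neural crest, at 63.5 ± 24.2 CPM. In 9600 mesenchyme-like and 1214 osteoblast-like cells 0 Foxd3 UMIs were counted, which allows a share of up to 0.0313% and 0.247% of cells with a UMI. A UMI was found in 80.6% of glia-like cells (95% exact binomial interval 72.6% to 87.2%), against 0.1003% of keratinocyte-like and 0.645% of macrophage-like cells. Median depth was alike in these 3 classes, at 8782, 8772 and 8968 UMIs, and the last 2 serve here as classes expected to lack the gene.

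Fabp7 had 93.8% of its 13042 UMIs in glia-like cells. Its level there was 13002 and 3563 CPM in control libraries against 13417 and 5460 CPM in the mutants, so that 1 library of each group was high and the other low. A UMI was found in 123 of 124 glia-like cells, against 0.502% of keratinocyte-like and 0.645% of macrophage-like cells. Fabp7 was also counted well above that background in a few other classes. Unnamed cluster 29, 41 cells led by Ttr, was at 917 and 793 CPM in control libraries against 154 CPM in mutant 1, and had no cells in mutant 2. Mural-like cells, the contractile cells of vessel walls, were at 115 and 248 CPM in control libraries against 21.1 and 56.5 CPM in the mutants, with a UMI in 39.1% of 156 cells. The order of mean levels was glia-like, cluster 29, mural-like and melanocyte-like (74.5 ± 85.3 CPM). The lowest glia-like library lay above the highest of cluster 29, whereas the ranges of cluster 29, mural-like and melanocyte-like cells overlapped each with the next.

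Cdh19 was shared by glia-like and melanocyte-like cells. In glia-like cells it was at 143 and 337 CPM in control libraries against 236 and 406 CPM in the mutants, and in melanocyte-like cells at 209, 117, 216 and 223 CPM in the same order of libraries. The ranges of these neural crest classes overlapped, and the number of melanocyte-like cells was small, at 10, 9, 3 and 4. Glia-like cells held 71.2% of the 420 Cdh19 UMIs and melanocyte-like cells 10.2%. In chondrocyte-like cells a Cdh19 UMI was found in 6.29% of 143 cells, at 6.88 ± 5.62 CPM, and in keratinocyte-like cells in 0.1003%.

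Gfra3, the artemin receptor, was detected in a minority of glia-like cells, 41.1% of 124 (95% exact binomial interval 32.4% to 50.3%), and in 0 of 26 melanocyte-like cells, which allows a share of up to 11.5%. In glia-like cells it was at 162 and 151 CPM in control libraries against 75.02 and 61.6 CPM in the mutants, resting on 68, 38, 28 and 10 UMIs. Both mutant libraries lay below both controls. Outside glia-like cells, a Gfra3 UMI was found in 3.497% of chondrocyte-like cells, 0.385% of mesenchyme-like cells and 0.301% of keratinocyte-like cells, the last being a background class.

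The ligand Dhh was thinly counted, with 48 UMIs in all retained cells and 31 of them (64.6%) in glia-like cells. Its level there was 21.5 and 19.8 CPM in control libraries against 16.1 and 67.7 CPM in the mutants, from 9, 5, 6 and 11 UMIs. A UMI was found in 19.4% of glia-like cells and in 3.27% of 214 endothelial-like cells, against 0.1003% of keratinocyte-like and 0.323% of macrophage-like cells.

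Prss56, the serine protease, was counted in 12.9% of glia-like cells and unevenly between libraries. Its 43 glial UMIs fell as 29 and 2 in control libraries against 12 and 0 in the mutants, or 69.3, 7.93, 32.2 and 0 CPM. The 0 in mutant 2 allows up to 18.5 CPM. Melanocyte-like cells had 0 Prss56 UMIs, and in mesenchyme-like cells 12 of 9600 cells had one (0.125%), close to the 0.1003% of keratinocyte-like cells.

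Npy and Frzb had their highest class means in glia-like cells too, but most of their UMIs lay in other classes, of which mesenchyme-like cells were 9600 of the 13739 retained cells. Npy was at a mean of 533 ± 251 CPM in glia-like, 183 ± 145 in melanocyte-like and 24.5 ± 10.0 in mesenchyme-like cells (SD, n = 4 libraries). It reached 793 and 440 CPM in control libraries against 672 and 228 CPM in the mutants in glia-like cells, yet these held 28.4% of its 2573 UMIs. Mesenchyme-like cells held 67.9%. Within them, 962 UMIs were in cluster 12, led by C1qtnf3, Ccn3 and Sema3c, and 459 in cluster 8, led by Cpne4, Sostdc1 and Sim1. Cluster 12 was at 281, 80.6, 291 and 203 CPM and cluster 8 at 345, 27.2, 152 and 146 CPM in control 1, control 2, mutant 1 and mutant 2. Control 2 was the lowest library in both clusters. In melanocyte-like cells Npy was at 307, 291, 0 and 134 CPM, the 0 resting on 3 cells. An Npy UMI was found in 45.2% of glia-like cells, against 0.1003% of keratinocyte-like and 0.467% of endothelial-like cells.

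Frzb, the Wnt antagonist, had 4.70% of its 1298 UMIs in glia-like cells, 68.0% in mesenchyme-like and 23.3% in osteoblast-like cells. In glia-like cells it was at 83.6 and 7.93 CPM in control libraries against 58.9 and 12.3 CPM in the mutants. Mesenchymal cluster 9, led by Foxf1, Nrg3 and Cntn6 and also by Shox2, was at 74.5, 114, 73.6 and 62.9 CPM, with a UMI in 33.9% of its 546 cells against 21.0% of glia-like cells. Its class means were 40.7 ± 36.8 CPM in glia-like, 29.6 ± 10.8 in osteoblast-like and 12.9 ± 1.32 in mesenchyme-like cells, and the libraries of the glia-like class spanned those of both others. Melanocyte-like cells had 0 Frzb UMIs.

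**Figure D1:**
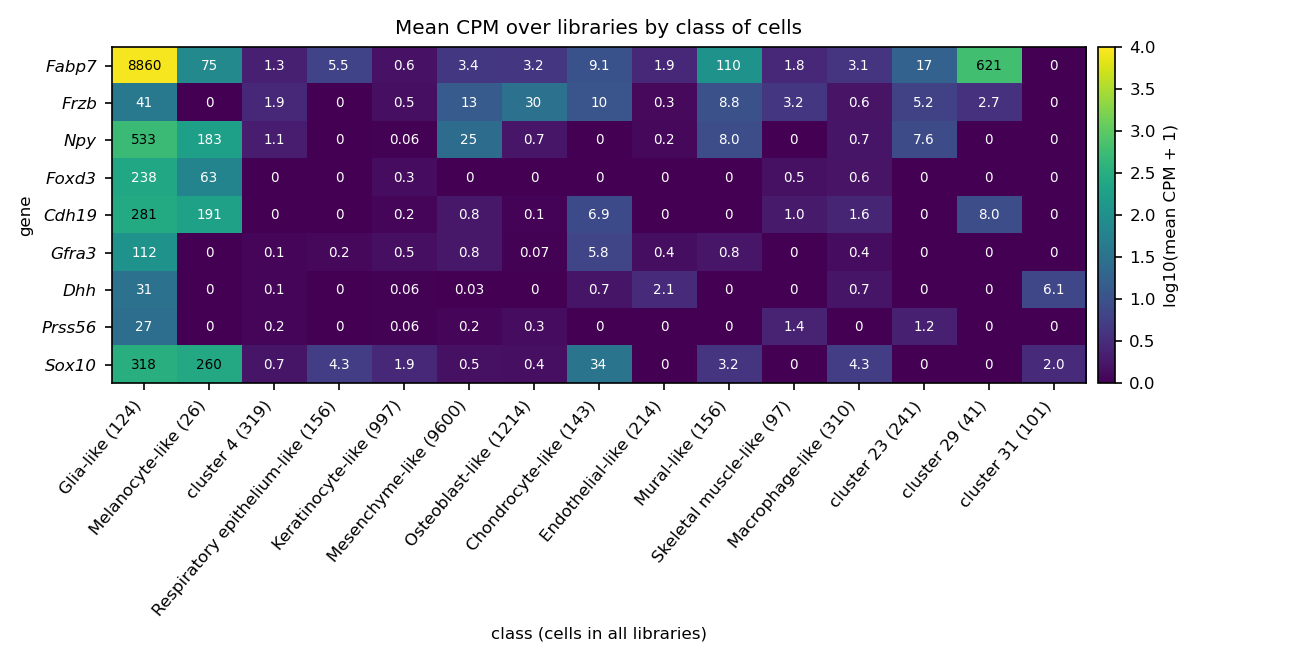
Mean CPM over libraries of the 8 genes and Sox10 (rows) in each class of cells (columns, with the number of cells). Colour is log10(mean CPM + 1) and the printed number is the mean CPM. All 8 genes have their highest mean in glia-like cells, with Npy next in melanocyte-like cells (183 CPM) and Frzb in osteoblast-like cells (29.6 CPM).

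By the rule of the highest Pearson correlation of log2(CPM + 10) over 32 sums of a class in a library, in the 8 classes that had 20 cells or more per library, the genes with the pattern most like Foxd3 were Gm12688 (r = 1.00), Gjc3 (0.99) and Cdh19 (0.99). Gm12688 is a long noncoding RNA at chr4:99653607-99654983, 1315 bases from Foxd3 and on the opposite strand. Fabp7 was most like Metrn (0.98) and also like Aatk (0.94), and Cdh19 most like Foxd3, Gjc3 and Lgi4 (0.99 each). Npy was most like Aatk (0.94), Slitrk2 (0.94) and Mmd2 (0.92). Gfra3 was most like Gm29865 (0.99), Gm12688 (0.99) and Foxd3 (0.98). Dhh was most like A330049N07Rik (0.96), I730030J21Rik (0.95) and Cdh19 (0.94), and Prss56 like Unc80 (0.92), 4930587E11Rik (0.92) and Acsbg1 (0.90). Frzb differed in kind, the genes near it in pattern including Alx4 (0.86), a homeobox gene of the facial mesenchyme, and Grin3a (0.85). The points share libraries and are dominated by the contrast of 1 class with the rest, and genes of few UMIs lie near the added 10 CPM, so these values only describe the pattern.

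Co-detection was examined in the 225 retained cells with at least 1 Sox10 UMI: 72 and 48 in control libraries against 52 and 53 in the mutants. Of these, 111 were glia-like, 25 melanocyte-like, 26 chondrocyte-like and 63 of other classes. The chondrocyte-like cells were 4 and 7 in control libraries against 3 and 12 in the mutants. A Sox10 UMI was found in 18.2% of chondrocyte-like cells, against 1.10% of keratinocyte-like, 0.968% of macrophage-like and 0 of 214 endothelial-like cells.

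The number of the 8 genes seen per cell differed between these classes, with overlap. All 111 glia-like Sox10-positive cells had UMIs of at least 2 of the genes, with a median of 4, and 76 of them had at least 4. The 25 melanocyte-like cells had a median of 2, made up of Cdh19 (14 cells), Npy (13), Foxd3 (12) and Fabp7 (10), with Frzb, Gfra3, Dhh and Prss56 at 0. Of the 26 chondrocyte-like cells 17 had none of the genes, and 54 of the 63 Sox10-positive cells of other classes had none. Median depth was 9302, 8995, 8722 and 8554 UMIs in these 4 groups. Read the other way, 86 retained cells had UMIs of at least 4 of the genes, of which 82 were glia-like and 3 melanocyte-like, and 193 had at least 2, of which 123 were glia-like.

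Pairs of genes differed in how far they met in the same Sox10-positive cell. Of 105 Foxd3-positive cells, 97 (92.4%) had Fabp7 and 76 (72.4%) had Cdh19, whereas 25% of Foxd3-negative cells had Fabp7 and 18.3% had Cdh19. These Foxd3-negative cells include Sox10-positive cells of other classes. Among the 124 glia-like cells alone, Fabp7 was found in 99.0% of Foxd3-positive and 100% of Foxd3-negative cells. Cdh19 was found there in 72.0% and 62.5%. All 14 Prss56-positive cells had Fabp7 and Npy, 10 had Frzb, 1 had Gfra3 and 0 had Dhh. Of 29 Frzb-positive cells, 4 (13.8%) had Gfra3, against 24.5% of Frzb-negative cells. Over the 124 glia-like cells, which differ less in depth and kind, Gfra3 was found in 3 of 26 Frzb-positive cells (11.5%) and in 49.0% of Frzb-negative cells. Cells of 1 library are not replicates, so these shares carry no test. Thinned to 2000 UMIs per cell, a depth that left out none of the 124 glia-like cells, Gfra3 was found in 30.2%, 21.4%, 12.5% and 9.52% of glia-like cells in the order of libraries above, and Frzb in 13.95%, 0%, 6.25% and 0%.

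Within the glia-like cells Fabp7 fell into 2 ranges. Per 10000 UMIs of a cell it ran from 0 to 453, with no cell between 26.9 and 45.2, and a limit of 30, set after these values were seen, split the cells into 59 with high and 65 with low Fabp7. Only 3 cells lay within 25% of the limit. Cells above it had a mean of 189 Fabp7 UMIs per 10000 and held 95.3% of the Fabp7 UMIs of glia-like cells, and cells below it had a mean of 9.82. Both ranges are parts of 1 cluster, not cell types. A Sox10 UMI was found in 86.4% of high and 92.3% of low cells, and the summed glial markers had medians over cells of 23.4 and 23.2 UMIs per 10000. Sox10 was at 222, 147, 203 and 404 CPM in high and 320, 372, 394 and 429 CPM in low cells in control 1, control 2, mutant 1 and mutant 2. Medians of the melanocyte, macrophage, endothelial, mural and keratinocyte marker lists were 0 in both. Mesenchymal markers had medians of 5.91 in high and 8.80 in low cells, olfactory neuronal markers, which include Gap43, 5.41 and 9.50, and chondrocyte markers, which include Sox9, 6.33 and 1.75. Median depth was 9913 UMIs in high and 8373 in low cells.

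**Figure D2:**
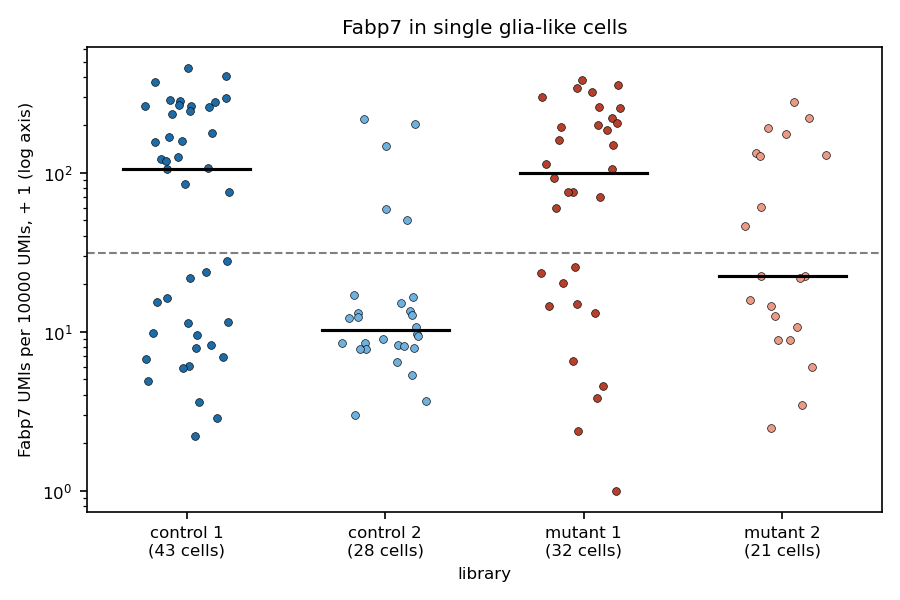
Fabp7 UMIs per 10000 UMIs, plus 1 on a log axis, in each glia-like cell (points) of the 4 libraries, with the median (solid line) and the limit of 30 (dashed line). High cells number 24 of 43, 5 of 28, 21 of 32 and 9 of 21 in control 1, control 2, mutant 1 and mutant 2.

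The mix of the ranges differed between libraries of the same group. High cells made up 55.8% of glia-like cells in control 1 and 17.9% in control 2, and 65.6% in mutant 1 and 42.9% in mutant 2, with exact 95% binomial intervals of 39.9% to 70.9%, 6.06% to 36.9%, 46.8% to 81.4% and 21.8% to 66.0%. The libraries with most high cells, control 1 and mutant 1, were those with the highest Fabp7 CPM, and the groups overlapped. Within the low range Fabp7 was nearly even, at 948, 905, 1020 and 1170 CPM, and within the high range it was at 21674, 14987, 19051 and 11227 CPM in the same order.

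Frzb and Prss56 were counted almost wholly in the high range. Of 61 Frzb UMIs in glia-like cells, 57 were in high cells, at 144, 0, 81.8 and 14.4 CPM in control 1, control 2, mutant 1 and mutant 2, against 0, 9.78, 8.57 and 10.7 CPM in low cells. The excess came from control 1 and mutant 1, and control 2 had only 5 high cells. Of 43 Prss56 UMIs, 41 were in high cells, at 119, 42.0, 39.0 and 0 CPM, against 0, 0, 17.2 and 0 CPM in low cells. Npy was higher in the high range in 3 libraries, at 1306, 673 and 838 CPM against 79.9, 386 and 309 CPM in control 1, control 2 and mutant 1. In mutant 2 the order was the opposite, 43.3 against 365 CPM, from 3 and 34 UMIs.

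Gfra3 and Cdh19 followed the low range. Of 144 Gfra3 UMIs in glia-like cells, 132 were in low cells, at 342, 186, 214 and 96.6 CPM, against 32.9, 0, 11.7 and 14.4 CPM in high cells. A Gfra3 UMI was found in 64.6% of low and 15.3% of high cells. Cdh19 was at 200, 377, 377 and 483 CPM in low and 103, 168, 171 and 303 CPM in high cells, lower in the high range in all 4 libraries. Egfl8, a secreted protein of Schwann cell precursors, was likewise higher in low cells of all 4 libraries, at 559, 210, 437 and 569 CPM against 168, 42.0, 109 and 115 CPM in high cells. Gap43, a growth protein of neurons and of Schwann cell precursors, was at 297, 861, 652 and 558 CPM in low against 45.2, 84.1, 195 and 28.9 CPM in high cells.

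Foxd3 and Dhh did not follow the ranges. Foxd3 was at 240, 318, 154 and 236 CPM in low and 205, 84.1, 230 and 274 CPM in high cells, lower in the high range in both controls and higher in both mutants. Dhh was at 34.2, 9.78, 17.1 and 42.9 CPM in low and 12.3, 63.1, 15.6 and 101 CPM in high cells, from 2 to 7 UMIs each. Egfl8 and Gap43 were chosen for this comparison after their values were seen. Foxd3, Dhh and the other genes of the set examined were left out of the clustering, whereas Egfl8 and Gap43 could take part in it. Since Fabp7 set the ranges, at a limit chosen after its values were seen, the values are given as a description without a test.

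**Figure D3:**
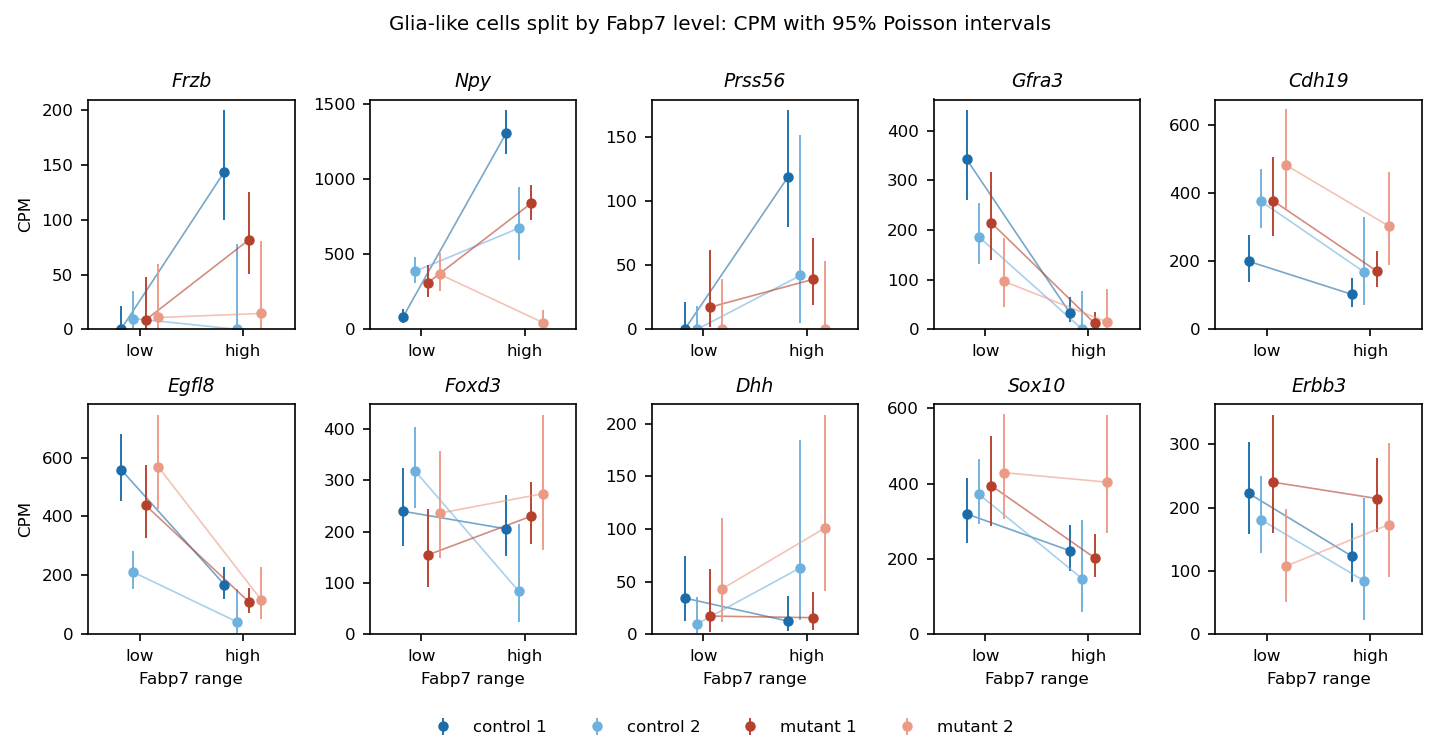
CPM of 7 of the 8 genes and of Egfl8, Sox10 and Erbb3 in Fabp7-low and Fabp7-high glia-like cells of each library (points, joined within a library), with exact 95% Poisson intervals, which cover counting error only. Gfra3, Cdh19, Egfl8 and Sox10 lie lower in the high range in all 4 libraries.

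The comparison of mutant with control libraries asked whether these genes differ between Sox10Cre/Yap/Taz cKO and WT noses. It was made on UMIs summed per library over all retained cells, over Sox10-positive cells and over glia-like cells. No member passed the threshold in any of the 3 cell sets. By edgeR's quasi-likelihood test with Benjamini-Hochberg adjustment at 0.05, 0 of 18080 genes (0%) were called over all cells, 0 of 8122 (0%) in Sox10-positive cells and 0 of 5398 (0%) in glia-like cells. Genes with an unadjusted p under 0.05 numbered 883, 474 and 258, and DESeq2 called 30, 0 and 0. Of the members, all 8 were tested over all cells and 7 in each of the other sets, where Dhh had too few UMIs. The members called thus numbered 0 of 8, 0 of 7 and 0 of 7, and 1 member, Gfra3, had an unadjusted p under 0.05 in each set. The members' median log2 change was -0.13, -0.43 and -0.34, against 0.0012, 0.0023 and -0.0035 over all genes tested. In sums over all cells, fewer cells of a type and less RNA per cell cannot be told apart.

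Gfra3 was lower in both mutant than in both control libraries in each set without passing the threshold. Over all retained cells it was at 2.43 and 3.29 CPM in control libraries against 1.34 and 0.856 CPM in the mutants, a log2 change of -1.40 ± 0.34 (SE, n = 2 against 2). In Sox10-positive cells it was at 79.7 and 71.8 CPM in control libraries against 34.8 and 24.7 CPM in the mutants, a log2 change of -1.37 ± 0.30. In glia-like cells, with the CPM given above, the log2 change was -1.22 ± 0.28. By edgeR's quasi-likelihood test with Benjamini-Hochberg adjustment the adjusted p was 0.909, 0.429 and 0.917 in these sets (unadjusted 0.00751, 0.0013 and 0.0018). With genes of low counts kept in the edgeR fit, the adjusted p in Sox10-positive cells was 0.0107, and over all alternatives in that set it ranged up to 1.00.

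The Gfra3 difference did not separate the groups within Fabp7-low cells, which held most of its UMIs: there mutant 1, at 214 CPM from 25 UMIs in 11 cells, lay between control 1 at 342 CPM and control 2 at 186 CPM. In Fabp7-high cells Gfra3 was at 32.9 and 0 CPM in control libraries against 11.7 and 14.4 CPM in the mutants. High cells, in which Gfra3 was low, were 55.8% and 17.9% of glia-like cells in control libraries against 65.6% and 42.9% in the mutants. The part of this mix in the difference was not tested.

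Foxd3 over all cells was at 2.97 and 3.95 CPM in control libraries against 2.68 and 1.60 CPM in the mutants, which gave -0.72 ± 0.33 on the log2 scale (edgeR adjusted p 0.909). In Sox10-positive cells the change was -0.43 ± 0.25 and in glia-like cells -0.18 ± 0.25 (edgeR adjusted p 0.912 and 0.961). Over all cells the change was -1.15 without mutant 1 and -0.39 without mutant 2, and in glia-like cells it was -0.36 without control 1 and -0.029 without control 2. Glia-like cells were 1.06% and 1.13% of retained cells in control libraries against 1.07% and 0.501% in the mutants, and melanocyte-like cells numbered 10, 9, 3 and 3 of the Sox10-positive cells. The part of these cell numbers in the Foxd3 values was not tested.

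Fabp7 overlapped between the groups in every set, with log2 changes of -0.11 ± 0.76 over all cells, 0.41 ± 0.70 in Sox10-positive and 0.13 ± 0.52 in glia-like cells. Single libraries decided its value. Without control 1 the change in glia-like cells was 1.34 (edgeR adjusted p 5.24e-11), without control 2 it was -0.51 and without mutant 1 it was -0.70. In Sox10-positive cells it was 1.06 without mutant 2 (edgeR adjusted p 0.00698), 2.10 without control 1 (edgeR adjusted p 0.0924) and -0.80 without mutant 1. Over all cells it was 0.76 without control 1 and -1.64 without mutant 1. These shifts went with the share of Fabp7-high cells in each library, and their part in it was not tested.

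The remaining members had wide errors. In glia-like cells the log2 change was -0.47 ± 0.43 for Npy, 0.34 ± 0.41 for Cdh19, -0.34 ± 0.79 for Frzb and -1.07 ± 0.93 for Prss56. Npy was lowest in mutant 2, at 228 CPM, and otherwise overlapped. Frzb and Prss56 were each low in control 2 and mutant 2 and higher in control 1 and mutant 1. Over all retained cells Frzb changed by 0.14 ± 0.17, Npy by -0.10 ± 0.31, Cdh19 by -0.15 ± 0.36, Dhh by 0.06 ± 0.60 and Prss56 by -1.00 ± 0.67. Single libraries moved the Prss56 values: without mutant 2 the change was -0.42 over all cells and -0.48 in glia-like cells, without control 2 it was -1.43 and -1.72, and over all cells it was -0.17 without control 1 and -1.97 without mutant 1. In glia-like cells no fold is given without mutant 1, since mutant 2 had 0 Prss56 UMIs there.

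**Figure D4:**
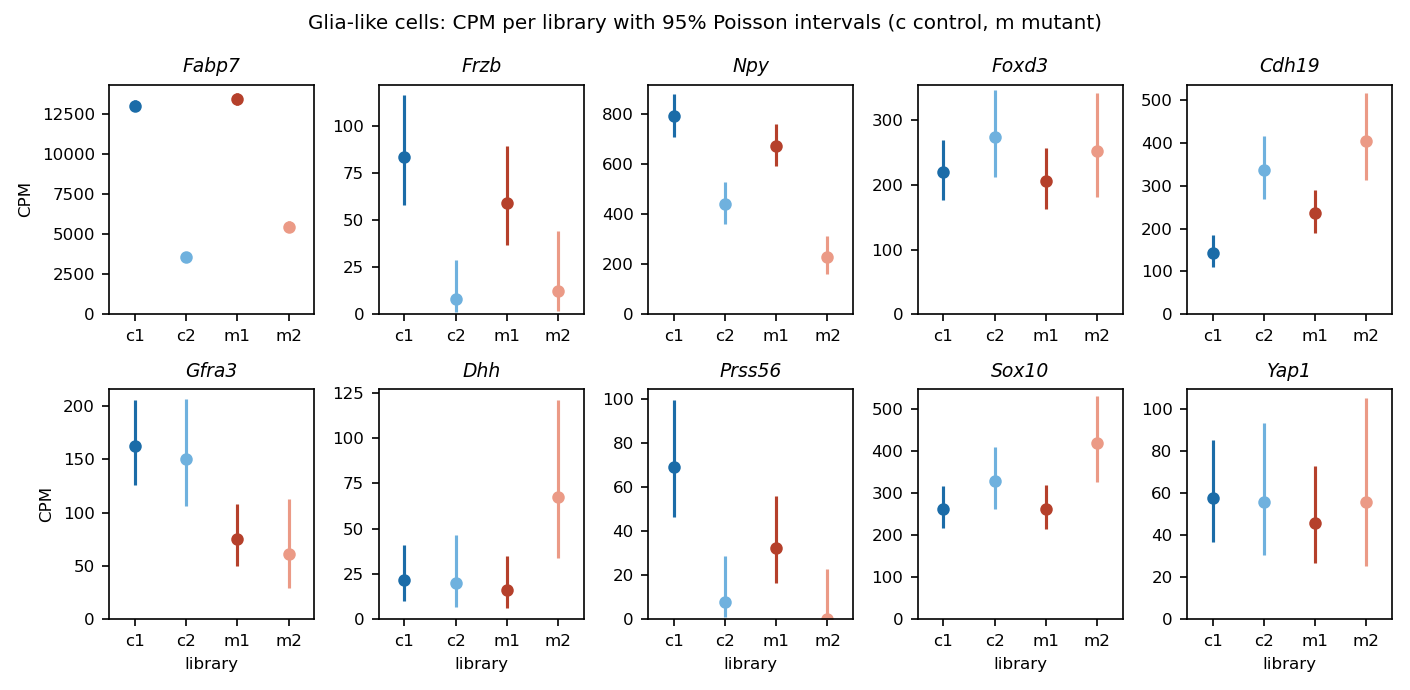
CPM of the 8 genes, Sox10 and Yap1 in glia-like cells of each library (c1 and c2 control, m1 and m2 mutant), with exact 95% Poisson intervals. Gfra3 lies at 162 and 151 CPM in control libraries against 75.02 and 61.6 CPM in the mutants, and Fabp7, Frzb and Prss56 are each high in 1 library of either group.

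**Figure D5:**
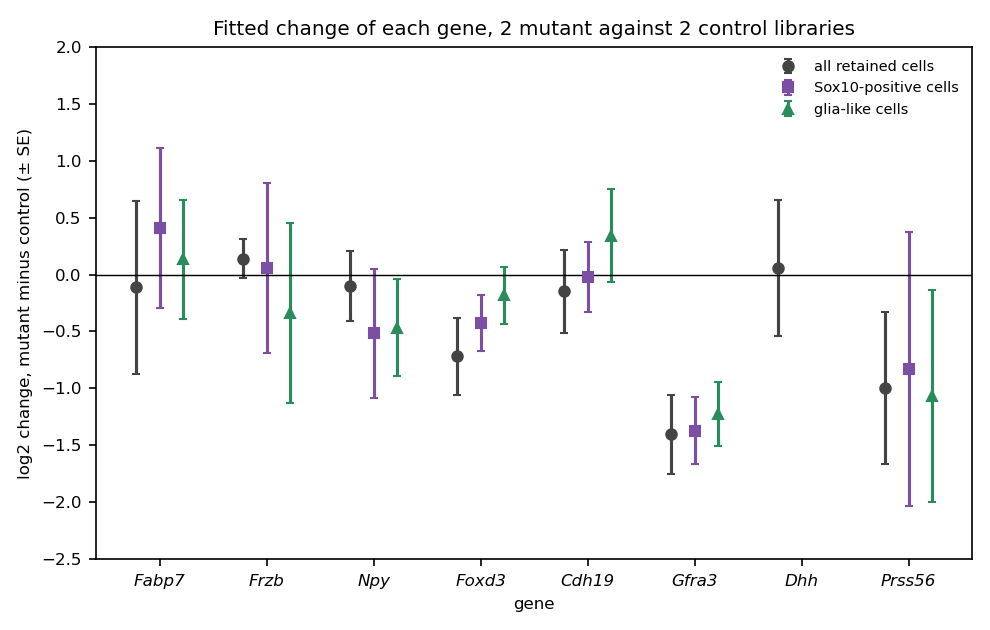
Log2 change of each gene, mutant minus control, with its SE, over all retained cells (circles), Sox10-positive cells (squares) and glia-like cells (triangles). Gfra3 is lowest or near lowest in each set, at -1.40, -1.37 and -1.22, and Dhh was tested over all retained cells only.

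The share of Sox10-positive cells among retained cells was 1.77% and 1.94% in control libraries against 1.74% and 1.26% in the mutants, a difference of -0.354 percentage points (exact two-sided permutation p 0.333, the smallest that 2 against 2 libraries can give). With cells thinned to 2000 UMIs the shares were 0.533% and 0.845% against 0.733% and 0.552%, a difference of -0.0459 points (exact permutation p 1.00). Of Sox10-positive cells thinned to that depth, which left out 1 cell each in control 2 and mutant 1, 62.5% and 63.8% in control libraries against 62.7% and 45.3% in the mutants had a UMI of any of the 8 genes, a difference of -9.15 points (exact permutation p 0.667). Unthinned, the shares were 72.2%, 72.9%, 67.3% and 56.6%. In cells with at least 2 Sox10 UMIs the difference was 10.1 points, the mutants then being higher, at 86.2% and 85.7% against 71.1% and 80.6%. The sum of chondrocyte markers in Sox10-positive cells was 2099, 1770, 2210 and 6046 CPM, highest in mutant 2, the library with 12 chondrocyte-like Sox10-positive cells.

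Genes of the pathways around the members were examined in glia-like cells, and 0 of them passed the edgeR threshold in any list. Of the GDNF receptor list 3 of 8 genes were tested. The co-receptor Gfra1 was at 246, 337, 255 and 252 CPM in control 1, control 2, mutant 1 and mutant 2, Gfra2 at 38.2, 39.7, 50.9 and 67.7 CPM, and the adhesion protein Ncam1 at 361, 405, 498 and 492 CPM. Ret, the usual signalling partner of Gfra receptors, and the Gfra3 ligand Artn were at 0 UMIs in glia-like cells. Of the hedgehog receivers of Dhh, 4 of 10 were tested with a median log2 change of -0.07. Their members with most counts were Gli3, at 115, 147, 126 and 154 CPM, Gas1, at 50.2, 59.5, 50.9 and 49.2 CPM, and the receptor Ptch1, at 45.4, 63.5, 56.3 and 18.5 CPM, and the target Gli1 was at 0.

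Of the Wnt antagonists related to Frzb, 4 of 9 were tested with a median of 0.13. Dkk2 was at 191, 218, 343 and 172 CPM, Sfrp1 at 148, 83.3, 115 and 135 CPM and Sfrp5 at 45.4, 23.8, 37.5 and 61.6 CPM. The Npy receptors Npy1r, Npy2r, Npy4r and Npy5r were at 0 UMIs in glia-like cells, and the peptide-processing enzyme Pam was at 117, 107, 96.4 and 154 CPM, while Cpe and Pcsk2 had too few UMIs to be tested. Fabp5, a relative of Fabp7, was at 654, 682, 664 and 782 CPM, even between libraries in which Fabp7 was not. The retinoid receptors Rxrg and Rxra, from the same list, were at 18.5 to 61.6 and 23.8 to 37.5 CPM.

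The Schwann lineage list had 17 of 22 genes tested, 11 of them higher in mutants and 3 with an unadjusted p under 0.05, with a median of 0.11. Among its genes with most counts were the endothelin receptor Ednrb (log2 change 0.55 ± 0.21) and Gap43 (-0.40 ± 0.56). The ensheathing glia list had 8 of 10 tested, 6 higher and 0 with an unadjusted p under 0.05, with a median of 0.36, with Vim (0.15 ± 0.15) and Apoe (0.92 ± 0.44) among those with most counts. Gfap, a filament protein of mature ensheathing cells, was at 0. Neural crest factors had 7 of 12 tested, 6 higher, with a median of 0.38, led by Sox5 (-0.21 ± 0.30), Id2 (0.65 ± 0.36) and Ets1 (0.35 ± 0.33). The lists share genes and are described by these counts alone. Over all cells and in Sox10-positive cells 0 genes of any list passed the edgeR threshold either.

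Melanocyte markers in Sox10-positive cells and stress genes in glia-like cells moved with the groups beside these results. In Sox10-positive cells all 6 of 6 tested melanocyte markers were lower in the mutants at a median log2 change of -1.21, 6 of them with an unadjusted p under 0.05 and 0 passing the edgeR threshold. Those with most counts, the melanosome genes Dct and Pmel and the pigment enzyme Tyr, had log2 changes of -1.24 ± 0.33, -0.88 ± 0.28 and -1.74 ± 0.44. The list summed to 1129 and 2163 CPM in control libraries against 825 and 635 CPM in the mutants. Melanocyte-like cells numbered 10 and 9 of the Sox10-positive cells in control libraries against 3 and 3 in the mutants. In these sums, fewer melanocyte-like cells and less RNA per cell cannot be told apart. In glia-like cells Mlana, Tyr and Tyrp1 were at 0 and the list summed to 19.8 to 55.4 CPM. Dissociation stress genes in glia-like cells summed to 1591 and 1103 CPM in control libraries against 2409 and 2561 CPM in the mutants, with 8 of 10 higher and 5 with an unadjusted p under 0.05, at a median of 0.64. Jun was at 592, 353, 723 and 603 CPM, Fos at 351, 365, 563 and 677 CPM and Hspa1a at 134, 27.8, 332 and 517 CPM. In Sox10-positive cells the stress list summed to 1542 and 2589 CPM in control libraries against 2011 and 2532 CPM in the mutants. The groups thus overlapped there, with 4 of 10 genes higher in mutants at a median of -0.14. Over all cells 3 of 10 were higher, at a median of -0.11. The part of melanocyte markers and stress genes in the values of the 8 genes was not tested.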

How the data were processed

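Single-cell 3′ RNA-seq of 4 whole-nose libraries was analysed. The authors deposited a filtered matrix of raw UMI counts per gene and cell for each library. Per the file headers these came from Cell Ranger 8.0.1, whereas the submitters' processing notes name Cell Ranger 4, Seurat 4.3.0 and mm10. Several sequencing providers are listed in the labels' protocols, with no key to the libraries, so this batch and the groups cannot be told apart. Another sample the protocol mentions was not analysed here.

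The cell filter was 500 genes and 10% mitochondrial UMIs. In scanpy 1.11.5, 1990 of 2000 variable genes, leaving out mitochondrial and sex-linked genes and the members (5 of the 8 were among the 2000), gave 40 components, 20 neighbours and Leiden clusters at resolution 1. A cluster was named from the list with the largest share of enriched markers when at least 3 were enriched, 1 was among its 10 leading genes and no other list came near. Clusters left over were then called mesenchyme-like when at least 3 mesenchymal markers were enriched over the named clusters outside mesenchyme, bone and cartilage and no list of another kind came near, with no leading marker required, so this is a broad class. The others stayed unnamed. Scrublet's automatic calls marked 0 to 2 cells per library and were not used. Doublets therefore remained, and an alternative removed the 56 to 163 cells of highest score per library. UMIs were summed per library and cell set and compared by the quasi-likelihood test of edgeR 4.0.16, with TMM scaling, its filter on low counts and Benjamini-Hochberg adjustment at 0.05. Shares of cells were compared by exact permutation tests. Intervals are exact (95%), limits for a 0 use 3 counts, and both cover counting error only.

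Alternatives were DESeq2 1.42.0, its size factors, no low-count filter, a replicate block, each library left out, doublets removed, stricter cells (1000 genes, 5% mitochondrial), at least 2 Sox10 UMIs, resolution 2 and thinning to 2000 UMIs. The fits were tested on simulated data. All 8 genes are named, and from each other list the 3 genes with the highest mean CPM where none passed the threshold. A few genes that this rule names are not reported here. The genes and lists were chosen with earlier results of these data known.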

Additional observations from a re-analysis of the deposited data

Results flagged for a closer look

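Foxd3 differed between the Fabp7 ranges of the glia-like cells in opposite directions in the groups. Foxd3 was picked for this pattern by searching all genes compared between the ranges, so the pattern is a description only. Its level in Fabp7-high cells minus that in Fabp7-low cells was -34.4 and -234 CPM in control 1 and control 2 and 75.6 and 38.0 CPM in mutant 1 and mutant 2. The mean of the mutants exceeded that of the controls by 191 CPM, and by 91.2 CPM without control 2, which had 5 high cells. The difference was not tested, and the values rest on few counts, with 50, 4, 59 and 19 Foxd3 UMIs in high and 42, 65, 18 and 22 in low cells.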

How the results depend on the processing

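Of 227 values of the 8 genes under an alternative, 191 kept their direction and side of the threshold, 33 reversed in sign, 24 of them by leaving out a library, and 3 passed the threshold. The Gfra3 change was negative under all alternatives run, between -1.77 and -1.12 over all cells, -1.66 and -1.03 in Sox10-positive and -1.45 and -1.13 in glia-like cells.

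Genes called numbered 30 with DESeq2 and 10 without the low-count filter over all cells, and 225 in Sox10-positive and 53 in glia-like cells without that filter. Leaving out 1 library gave 0 to 410, 0 to 98 and 0 to 142 in these sets. Control 1 gave the 410 and, left out, 74 in Sox10-positive and 142 in glia-like cells, control 2 gave 1 over all cells and 36 in glia-like cells, mutant 1 gave 5 in glia-like cells and mutant 2 the 98. Among the 8 genes 1, Gfra3, was called in Sox10-positive cells without the filter, and leaving out 1 library gave 0 to 1 (Fabp7) in Sox10-positive and in glia-like cells. The cause was not tested for any of these.

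Reversed values over all cells were 0.018 for Fabp7 and -0.19 for Dhh in stricter cells, and -0.082 for Dhh with the replicate block. In Sox10-positive cells they were -0.053 with doublets removed and -0.0047 with at least 2 Sox10 UMIs for Frzb, and for Cdh19 0.036 with the block, 0.091 with doublets removed, 0.041 in stricter cells and 0.30 with at least 2 Sox10 UMIs. The share of Sox10-positive cells with a UMI of the genes reversed to 10.1 points with at least 2 Sox10 UMIs.

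Leaving out 1 library gave ranges over all cells of -1.64 to 0.76 for Fabp7, -0.039 to 0.30 for Frzb, -0.47 to 0.44 for Npy, -0.58 to 0.41 for Cdh19 and -0.83 to 0.62 for Dhh. In Sox10-positive cells they were -0.80 to 2.10 for Fabp7, -0.68 to 2.64 for Frzb, -2.14 to 0.19 for Npy and -0.42 to 0.47 for Cdh19. In glia-like cells they were -0.70 to 1.34 for Fabp7, -2.10 to 2.23 for Frzb, -1.55 to 0.053 for Npy and -0.21 to 1.03 for Cdh19. The lone library of a group was assumed to vary like the other group. For the shares the ranges were -0.590 to -0.117 and -17.9 to -0.420 points, and thinning gave -0.0459 points for the first.

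With the replicate number as a block 0 genes were called in each set. Samples of the same number deviated with correlations of -0.03, 0.12 and 0.11 over genes in the 3 sets, so the numbers were not taken as pairs. Depth was low for single genes, as with the 10 to 68 Gfra3 UMIs per library in glia-like cells.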
